A study of Drosophila melanogaster with 42 samples.

Results

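CG7759_33 is a candidate regulatory region of Drosophila melanogaster whose identifier names the gene CG7759, listed as Smyd4-3 in the RefSeq gene table of Release 6. It was taken as every region whose identifier starts with CG7759_, and it was the only such region among 491 candidate regions, of which 107 carry a gene name. It was chosen by its measured gain of read share in GFP+ cells over their inputs, so that gain is given as a description without a test. The deposited tables place it on chromosome arm 2R of dm3, from 7287136 to 7288168, a length of 1033 bp with a GC content of 46.1%. Whether this interval lies in an exon, an intron or between genes was not analysed here, because the gene table used for names is of another assembly.

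An enhancer is a stretch of DNA that raises transcription of a gene in particular cells, and it can be assayed by placing it before a reporter gene such as GFP. In the assay of this study each fly of a transgenic pool carried a candidate region before GFP, cells of whole embryos were sorted on GFP, and the regions in the sorted cells were amplified from their DNA and sequenced. A region that drives GFP in a population should therefore hold a larger share of reads in the GFP+ cells of that population than in the unselected cells. Proteins of the SET and MYND domain family carry a SET domain, the fold of lysine methyltransferases. In the mouse, the family member Smyd1 is needed for development of the heart and is also expressed in skeletal muscle. The reads are of inserted DNA and not of RNA, so neither the expression of CG7759 nor the identity of the sorted cells could be checked against marker genes.

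The 42 libraries formed 12 groups, all from embryos whose fathers came from the pool and whose mothers expressed rat CD2, a surface protein used for sorting, from a twi, mef2 or duf driver. Twist is a transcription factor of the early mesoderm, Mef2 is a transcription factor of muscle differentiation, and dumbfounded (duf, also kirre) is an adhesion protein of muscle founder cells. The labels do not give the construct behind each driver, so how far CD2 marks the cells of the named gene was not analysed here. Collection lasted 2 to 2.5 h (25 °C), and the embryos were then kept for a further 9 to 10 h (18 °C) before dissociation.

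For twi there were 3 CD2+ GFP+ libraries, 3 inputs of CD2+ cells, 3 CD2- GFP+ libraries and 3 inputs of CD2- cells. For mef2 there were 3 CD2- GFP+ libraries, 3 CD2- inputs of 200000 cells each, a single pooled CD2+ GFP+ library and 5 CD2- inputs of 20048 to 32326 cells (called small inputs here), which the series design sets against that library. For duf there were 6 CD2- GFP+ libraries, 6 CD2- inputs of 200000 cells, a single pooled CD2+ GFP+ library and 5 small inputs of 39668 cells. For mef2 and duf, the comparison of CD2+ GFP+ cells with CD2- inputs therefore joins the CD2 sort and the GFP sort. The titles of the duf small inputs give CD2 without a sign, and their sorted population is given as CD2- in another label. No label states whether replicates are separate crosses, so p-values reflect a spread among libraries that may be technical only.

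Libraries held 15601850 to 30671351 reads over all regions. The read share of CG7759_33 is given as CPM, its reads per 1000000 reads of the library. It had at least 530 reads in every library and was 1 of 19 regions with 100 or more reads in all 42. Wilson 95% intervals of these shares were narrow, for example from 23.6 to 28.0 CPM at the lowest share of 25.7 CPM, and they cover counting error only, because PCR reads without molecular identifiers are not independent molecules. The duf libraries held a different set of regions from the twi and mef2 libraries. CBP4242, for example, was listed at 0 reads in all twi and mef2 libraries and had the highest mean share in both duf GFP+ groups. A share in duf is therefore taken of another pool, and a difference between duf and the other drivers cannot be told apart from that of their pools.

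CG7759_33 was among the most abundant regions of every GFP+ population. Its mean share ran from 14696 CPM, which is 1.47% of the reads, in duf CD2+ cells to 159493 ± 36588 CPM (SD, n = 3) in twi CD2+ cells, where the highest of its libraries reached 19.2% of all reads. It ranked 2 or 3 in all 10 twi and mef2 GFP+ libraries and from 2 to 12 in the 7 duf GFP+ libraries. In the 25 inputs it ranked from 21 to 357. By group means it was the only region among the 12 most abundant of all 6 GFP+ groups, a rank limit set after its values were seen. The limit equals its own rank of 12 in the single duf CD2+ library. Another region, ChIPCRM2907, ranked 14 in that library and from 2 to 7 in the other GFP+ groups.

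In twi CD2+ GFP+ cells the share was 192444, 165915 and 120118 CPM in replicates 1, 2 and 3. The CD2+ inputs held 8291, 11714 and 5689 CPM. The ranges lie far apart, the lowest GFP+ library being 10.3 times the highest input, and the ratio of the means was 18.6, or 4.22 on the log2 scale. Among 191 regions ranked by this ratio the region was the third.

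In twi CD2- GFP+ cells the share was 57906, 48196 and 73338 CPM, and in the CD2- inputs it was 7136, 13512 and 5051 CPM. The groups again do not overlap, with the lowest GFP+ library at 3.57 times the highest input. The ratio of the means was 6.98, or 2.80 on the log2 scale, the smallest of the 6 populations. By this ratio the region ranked 7 among 193 regions, against 2 or 3 in each mef2 and duf population. Replicate 2 is the highest of both twi inputs, and replicate 3 the lowest.

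In mef2 CD2- GFP+ cells the 3 libraries held 128357, 115544 and 120407 CPM, the tightest group of the series at 121436 ± 6468 (SD, n = 3). The inputs of 200000 cells held 9206, 6447 and 5043 CPM. The lowest GFP+ library was 12.6 times the highest input, and the ratio of the means was 17.6, or 4.14 on the log2 scale. The single mef2 CD2+ GFP+ library held 120153 CPM, inside the range of the CD2- libraries. Its 5 small inputs held 141, 184, 753, 3024 and 2424 CPM, which is a spread of 21.5 times between the lowest and the highest. The single library was 39.7 times the highest of them and 92.1 times their mean.

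In duf CD2- GFP+ cells the 6 libraries ran from 34092 through a median of 62650 to 75132 CPM. The 6 inputs of 200000 cells ran from 199 through a median of 975 to 1839 CPM. Every GFP+ library exceeded every input, by at least 18.5 times, and the ratio of the means was 59.8, or 5.90 on the log2 scale. In the single duf CD2+ GFP+ library the share was 14696 CPM, below all 6 CD2- libraries and 3.95 times below their mean. The duf small inputs held 2223, 417, 160, 25.7 and 213 CPM, so replicate 1 alone stood above the other 4. The CD2+ library was 24.2 times the mean of these inputs and 6.61 times the highest. Without replicate 1 of the small inputs the log2 ratio went from 4.60 to 6.17.

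**Figure D1:**
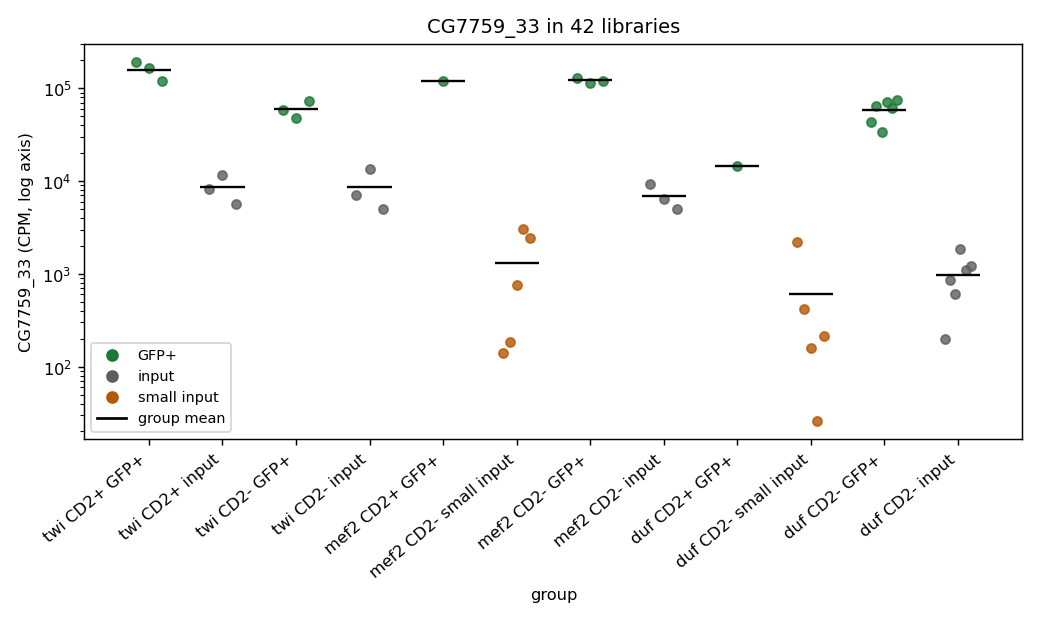
Share of CG7759_33 in CPM (log axis) in each of the 42 libraries, by group, with green points for GFP+ libraries, grey points for inputs, brown points for small inputs and black lines for group means. The GFP+ libraries lie between 14696 and 192444 CPM, all above the highest input at 13512 CPM, and the small inputs spread most.

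**Figure D2:**
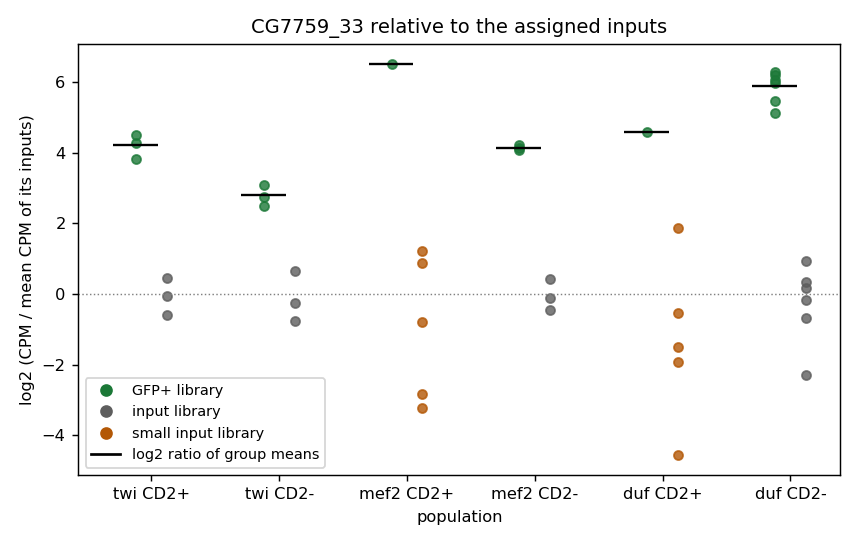
Log2 of the CPM of CG7759_33 over the mean CPM of the inputs assigned to each of the 6 populations. Green points are GFP+ libraries, grey and brown points are inputs, and the black lines are the log2 ratios of group means, from 2.80 in twi CD2- to 6.52 in mef2 CD2+ cells. The ratios rest on unlike inputs, because mef2 CD2+ and duf CD2+ cells are set against CD2- small inputs (brown). In mef2 these average 1305 CPM and the larger inputs 6898 CPM.

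Ordered by mean share, twi CD2+ GFP+ cells came first, followed by mef2 CD2- and mef2 CD2+ GFP+ cells, whose ranges overlap with the first. Next came twi CD2- at 59813 ± 12679 CPM (SD, n = 3) and duf CD2- at 58085 ± 16221 CPM (SD, n = 6), which overlap with each other and lie below all libraries of the first 3 groups. The duf CD2+ library stood alone below these. The twi and mef2 inputs of 100000 cells or more overlapped with one another, with means of 8566, 8565 and 6898 CPM. The mef2 small inputs, the duf inputs and the duf small inputs formed the lowest block, with overlapping ranges and means of 1305, 971 and 608 CPM.

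Differences between populations were tested with edgeR over all regions that passed its filter on low counts, and a region was called at an adjusted p under 0.05. The first question was whether the twi sort matters. Between twi CD2+ and CD2- GFP+ cells the share of CG7759_33 was 2.67 times higher in CD2+ cells, and all 3 CD2+ libraries lay above all 3 CD2- libraries. The log2 difference after TMM scaling was 1.94 ± 0.41 (SE, edgeR adjusted p 0.0394). In this comparison 7 of 172 regions, or 4.07%, were called. The inputs of the same populations differed by 0.16 ± 0.48 (SE, 95% interval -1.17 to 1.49, edgeR adjusted p 1.00), where 0 of 204 regions, or 0%, were called, 3 had an unadjusted p under 0.05, and DESeq2 called 5. By total reads the means of the inputs were 8565 CPM in CD2+ and 8566 CPM in CD2- cells.

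The call in twi GFP+ cells rests on each of several libraries. It was lost without CD2+ replicate 1 (adjusted p 0.125), CD2+ replicate 2 (0.102), CD2- replicate 1 (0.222) or CD2- replicate 2 (0.0877), and with median-ratio size factors the log2 difference was 0.57 (adjusted p 0.981 in edgeR and 0.949 in DESeq2). With the replicate number as a block the difference of 1.94 did not pass either (adjusted p 0.211), and deviations of the same-numbered libraries of these 2 groups correlated at 0.071 to 0.49. When the inputs entered the same fit, the difference of enrichment between CD2+ and CD2- cells was 1.74 ± 0.60 (SE, 95% interval 0.36 to 3.12) and did not pass (edgeR adjusted p 0.214). There 0 of 211 regions, or 0%, were called, 22 had an unadjusted p under 0.05, and DESeq2 called 12. It passed without CD2- input replicate 3 (log2 difference 2.31, adjusted p 0.0480) and without CD2+ GFP+ replicate 3 (2.32, 0.0227). It also passed without the filter on low counts (2.03, 0.0415), and with median-ratio size factors it was -0.056. With the replicate number as a block it was 1.57 ± 0.58 (SE, edgeR adjusted p 0.313) and did not pass.

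For mef2 and duf, CD2+ cells were represented by 1 GFP+ library each, which was assumed to vary like the other groups. Neither driver had a CD2+ input, so CD2- small inputs were set against that library and larger CD2- inputs against the CD2- GFP+ libraries. Each difference below therefore joins the difference between GFP+ cells with that between small and larger CD2- inputs. In mef2 the GFP+ shares were close, at 120153 CPM (CD2+) and 121436 CPM (CD2-). The small and larger mef2 inputs averaged 1305 and 6898 CPM. In duf the GFP+ shares were 14696 and 58085 CPM, and the inputs averaged 608 and 971 CPM. The mef2 difference of enrichment between CD2+ and CD2- cells was 0.44 ± 1.38 (SE, 95% interval -2.75 to 3.63, edgeR adjusted p 0.905), with 1 of 231 regions, or 0.433%, called. The mef2 value depended on the setting, at 2.39 with total-read scaling, 2.68 with the replicate number as a block, 1.18 without a filter and 0.93 with median-ratio size factors, none of which passed. Leaving out 1 library gave 0.15 (without small input replicate 1) to 1.33 (without small input replicate 5). The duf difference was -2.53 ± 1.74 (SE, 95% interval -6.25 to 1.20, edgeR adjusted p 0.732), with 0 of 430, or 0%, called, 30 at an unadjusted p under 0.05 and 84 called by DESeq2. Both intervals include 0 and are wide. The duf difference was -1.31 with total-read scaling and -1.26 with the sequencing lane as a block, and leaving out 1 library gave -2.87 to -0.82, the latter without small input replicate 1.

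**Figure D3:**
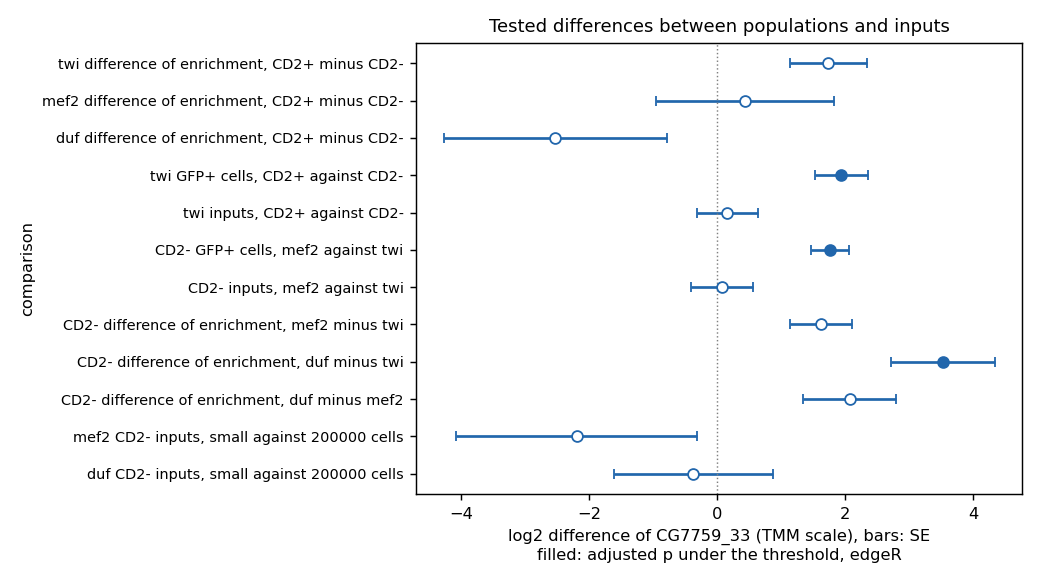
Log2 differences of CG7759_33 on the TMM scale in the 12 tested comparisons, with bars for the standard error and filled points where the edgeR adjusted p was under 0.05. The 3 filled points are twi CD2+ against CD2- GFP+ cells at 1.94, mef2 against twi CD2- GFP+ cells at 1.76 and the duf minus twi difference of enrichment at 3.53.

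The next question was whether the CD2- populations of the 3 drivers differ. These are the cells without CD2 on their surface. Between mef2 and twi, the share in CD2- GFP+ cells was 2.03 times higher in mef2, with all 3 mef2 libraries above all 3 twi libraries. The log2 difference was 1.76 ± 0.30 (SE, edgeR adjusted p 0.0121), and 5 of 170 regions, or 2.94%, were called. The inputs of 200000 cells in mef2 and of 100000 to 200000 cells in twi differed by 0.08 ± 0.49 (SE, 95% interval -1.26 to 1.43, edgeR adjusted p 0.934) in CG7759_33, while 64 of 212 regions, or 30.2%, were called there. With total-read scaling the input difference was -0.31. CG7759_33 was not among the 64, and its input ranges overlap. ChIPCRM2078, for example, averaged 7284 CPM in the mef2 CD2- inputs of 200000 cells and 303 CPM in the twi CD2- inputs. The make-up of the inputs therefore differed between mef2 and twi as well. A difference in share between mef2 and twi GFP+ cells cannot be told apart from that of their inputs.

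The mef2 against twi call was lost without mef2 GFP+ replicate 1 (adjusted p 0.0850) and with median-ratio size factors (log2 difference 1.18, adjusted p 0.434). The difference of enrichment between mef2 and twi CD2- cells was 1.62 ± 0.48 (SE, 95% interval 0.50 to 2.73) and did not pass (edgeR adjusted p 0.163). Here 0 of 221 regions, or 0%, were called, 28 had an unadjusted p under 0.05, and DESeq2 called 39. With median-ratio size factors this difference was 0.12, in edgeR (adjusted p 0.997) and in DESeq2 (0.971).

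The gain in duf CD2- cells exceeded that in twi CD2- cells. The log2 difference of enrichment was 3.53 ± 0.81 (SE, edgeR adjusted p 0.0251), and 11 of 440 regions, or 2.5%, were called. The GFP+ shares of both groups overlap, while the twi inputs held 8.83 times the mean share of the duf inputs and every twi input exceeded every duf input. All 3 calls of CG7759_33 use the same twi CD2- GFP+ libraries and so are not independent of each other. The call was lost without twi CD2- input replicate 2 (adjusted p 0.0687) or twi CD2- GFP+ replicate 2 (0.0805), and with median-ratio size factors the difference was 0.64 (adjusted p 1.00). Against mef2 the duf difference of enrichment was 2.07 ± 0.72 (SE, 95% interval 0.52 to 3.62, edgeR adjusted p 0.125), with 16 of 439 regions, or 3.64%, called, and it was -1.05 with median-ratio size factors. In that pair the mef2 values were higher on both sides, 2.09 times in GFP+ cells and 7.11 times in inputs.

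The inputs were also compared by their number of cells. In mef2 all 5 small inputs lay below all 3 inputs of 200000 cells, with means of 1305 ± 1335 and 6898 ± 2118 CPM (SD). On the scale of total reads the mean log2 CPM differed by -3.30, and a two-sided exact permutation test over 56 splits gave p = 0.0357. Another split, in the opposite direction, lay further apart. The edgeR difference was -2.19 ± 1.88 (SE, 95% interval -6.79 to 2.40, adjusted p 0.614), with 0 of 221 regions, or 0%, called, 49 at an unadjusted p under 0.05 and 44 called by DESeq2. It was -0.55 with median-ratio size factors and -4.65 with the replicate number as a block. In duf the small inputs overlapped with the larger ones, and the edgeR difference was -0.37 ± 1.24 (SE, 95% interval -3.18 to 2.44, adjusted p 0.966), with 0 of 412 regions, or 0%, called, 21 at an unadjusted p under 0.05 and 8 called by DESeq2. The duf value was -0.68 with total-read scaling, -1.31 with the replicate number and -1.86 with the lane as a block, and the exact permutation test gave -1.71 with p = 0.132 over 462 splits.

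The product of read share and sorted cells shows how few cells the low input values could stand for if reads were proportional to cells, which was not tested. It was 1.02 to 88.2 cells in the duf small inputs and 4.54 to 60.6 in the mef2 small inputs. In the duf inputs of 200000 cells it was 39.8 to 368, and in the twi and mef2 inputs of 100000 cells or more it was 714 to 2702. In GFP+ libraries it ran from 294 cells in duf CD2+ to 19688 in twi CD2+ cells. The groups with the smallest products were also those with the widest spread between libraries, 86.4 times in the duf small inputs against 1.11 times in mef2 CD2- GFP+ cells. The product contains the share itself, so product and spread are not independent, and the cause of the spread was not tested.

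For duf alone the labels give a sequencing lane, and 5 lanes held both GFP+ and input libraries. Within lanes the mean CD2- GFP+ share was 358, 28.9, 114, 2920 and 50.8 times the mean input share in lanes 1, 2, 5, 7 and 8. The inputs of lanes 2, 5 and 7 were small inputs only, and lane 8 held both kinds. Against inputs of 200000 cells alone the ratio could be had in lane 1, at 358, and in lane 8, at 37.0. The CD2+ GFP+ library was in lane 1, at 73.8 times the input there. The GFP+ value was higher in all 5 lanes, and lane 7, with the highest ratio, held the input with the lowest share, at 25.7 CPM. In lanes 3 and 6 there was no GFP+ library.

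The region whose group means followed those of CG7759_33 most closely was ChIPCRM2907 (dm3 3R 17989695 to 17990673), with a Pearson correlation of 0.90 over the 12 groups in log2 CPM among 437 regions. ChIPCRM2299 (3R 10412527 to 10413427) followed at 0.79, ChIPCRM1586 (3R 851011 to 852016) at 0.70, ChIPCRM2078 (3R 7177448 to 7178448) at 0.53 and ChIPCRM2847 (3R 17437327 to 17438327) at 0.50. All of them lie on another chromosome arm than CG7759_33, and the 12 points share libraries and pools, so the correlations are a description. With 42 single libraries in place of group means, 2 of these 5 regions remained among the 5 most alike.

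The ratio of CG7759_33 to ChIPCRM2907 within a library does not depend on any scaling. In twi CD2+ GFP+ cells it was 1.57, 1.21 and 1.13, and in twi CD2- GFP+ cells it was 0.437, 0.323 and 0.597, so the groups did not overlap and the more abundant of the pair changed. In the twi CD2+ inputs the ratio was 0.549, 0.429 and 0.243, against 0.512, 0.989 and 0.464 in the CD2- inputs. It was 1.32, 1.25 and 1.12 in mef2 CD2- GFP+ cells and 0.954 in the mef2 CD2+ library. The duf CD2- GFP+ libraries spread from 0.570 to 2.72, and the duf CD2+ library was at 1.23, inside that range. The separation of the twi GFP+ groups depended on the region taken as reference. Against ChIPCRM2299 the ratio was 5.10, 4.23 and 3.81 in CD2+ cells and 2.92, 3.59 and 4.58 in CD2- cells, which overlap. Against ChIPCRM3152 it was 0.806, 0.847 and 0.686 in CD2+ cells and 0.199, 0.185 and 0.292 in CD2- cells, without overlap. CG7759_33 and ChIPCRM2907 were the only 2 of 491 regions with every GFP+ library above every assigned input in all 6 populations, a count that uses the same values as the choice of the region.

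**Figure D4:**
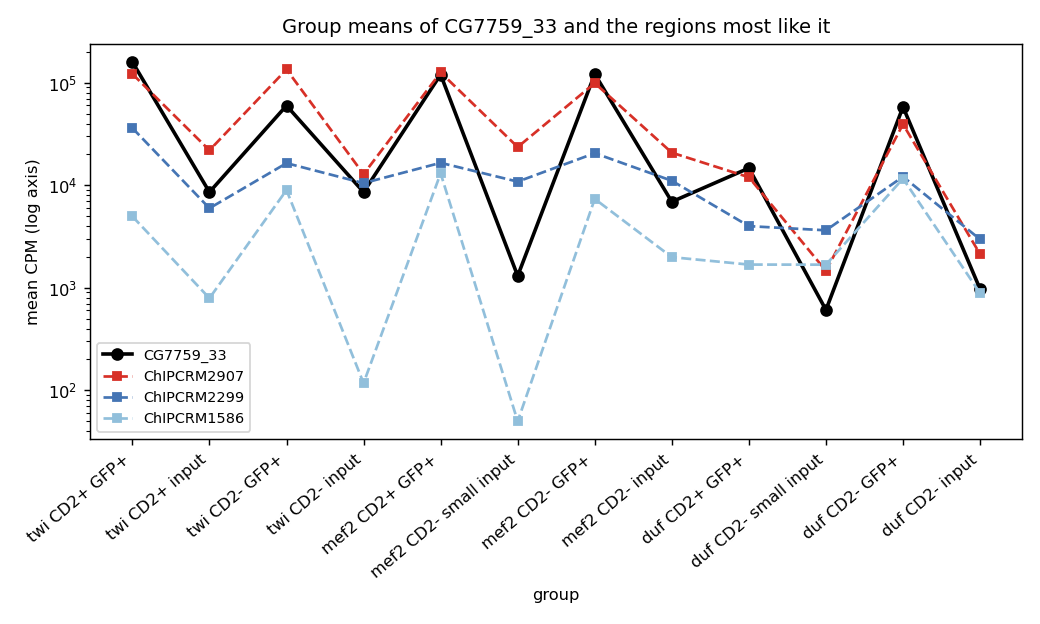
Mean CPM (log axis) in the 12 groups for CG7759_33 (black) and for the 3 regions with the highest correlation with it. ChIPCRM2907 follows CG7759_33 in the GFP+ groups, with CG7759_33 lower in twi CD2- and, slightly, in mef2 CD2+ cells. In every input group CG7759_33 is the lower, and the mef2 small inputs separate them most, at 1305 and 23570 CPM.

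The regions with a mean above CG7759_33 were not the same in all GFP+ groups. ChIPCRM3152 led twi CD2+ cells at 203210 ± 32409 CPM and twi CD2- cells at 267761 ± 21169 CPM (SD, n = 3 each), with ChIPCRM2907 between it and CG7759_33 in the latter. ChIPCRM2078 led both mef2 populations, at 138345 ± 2224 CPM (SD, n = 3) in CD2- cells, and ChIPCRM2907 was the other region above CG7759_33 in the mef2 CD2+ library. CBP4242 and ChIPCRM5432 stood above it in duf CD2- cells, at 172339 ± 18513 and 64678 ± 16815 CPM (SD, n = 6). In the duf CD2+ library 11 regions stood above it. These were CBP4242, ChIPCRM5432, ChIPCRM2000, ChIPCRM2613, ChIPCRM2889, ChIPCRM5792, ChIPCRM6081, ChIPCRM5819, ChIPCRM2898, hth_3 and CBP1911, of which hth_3 and CBP1911 were close to it at 14865 and 14718 CPM.

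Along the arm CG7759_33 stood alone. It was 1 of 60 candidate regions on 2R and overlapped none of them. On the side of lower coordinates the nearest were ChIPCRM425, 853504 bp away (2R 6432731 to 6433631), ChIPCRM422 (2R 6386212 to 6387295) and G-oalpha47A_5 (2R 6326038 to 6327016). On the other side they were ChIPCRM609, 1359865 bp away (2R 8648034 to 8648989), ChIPCRM616 (2R 8704440 to 8705439) and ChIPCRM630 (2R 8811819 to 8812814). Of these 6 only ChIPCRM425 reached 100 reads in any of the 24 twi and mef2 libraries, in 11 of them and never above 279 CPM, whereas CG7759_33 did so in all 24.

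In the duf libraries the neighbours could be compared with CG7759_33. ChIPCRM425 held up to 12863 CPM in duf inputs and at most 1662 CPM in duf GFP+ libraries, while CG7759_33 was higher in all GFP+ libraries than in any input. ChIPCRM422 reached 856 CPM in inputs and no more than 0.124 CPM in GFP+ libraries. ChIPCRM609 and ChIPCRM616 reached 6967 and 4447 CPM in inputs and 1332 and 387 CPM in GFP+ libraries, G-oalpha47A_5 964 and 298 CPM. Of the 6, ChIPCRM630 was the only one whose highest GFP+ value, 2559 CPM, exceeded its highest input value of 1970 CPM. In the gene order of the Release 6 table, Smyd4-3 is preceded by 4 threonine tRNA genes and followed by CG30026, CG34054, Drip, which encodes a water channel, and CG7763.

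Base composition and length of the region lay within the range of the candidates. Its GC content of 46.1% compares with a median of 42.3% (28.0% to 62.1%), and 98 of the 491 regions were higher. Its 1033 bp compare with a median of 1007 bp (900 to 1101), and 176 regions were longer.

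The tables also count the reads at either end of a region, and for CG7759_33 these were unequal. Reads at the start made up 44.3% to 49.1% of the reads at both ends in GFP+ libraries. In the twi and mef2 inputs of 100000 cells or more they made up 40.8% to 46.0%, and in the duf inputs of 200000 cells 30.9% to 39.2%. The duf inputs lie below all GFP+ libraries without overlap, and their small counterparts, at 39.8% to 46.0%, lie closer to the other inputs. Over all regions together the start share was 47.9% to 51.2%, and CG7759_33 was below that of its library in all 42. Counted from the lowest start share, among regions with at least 100 end reads in a library, CG7759_33 ranked 27 to 49 of 365 to 406 in the duf inputs of 200000 cells, 21 to 31 of 145 to 179 in the twi and mef2 inputs of 100000 cells or more and 82 to 144 of 260 to 337 in the duf CD2- GFP+ libraries, so in each of these libraries other regions had a lower start share. The reads at both ends were 15.5% to 25.1% of all its reads, again below the value over all regions in all 42 libraries, which was 21.2% to 31.4%. The part of this imbalance in the read shares was not tested.

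**Figure D5:**
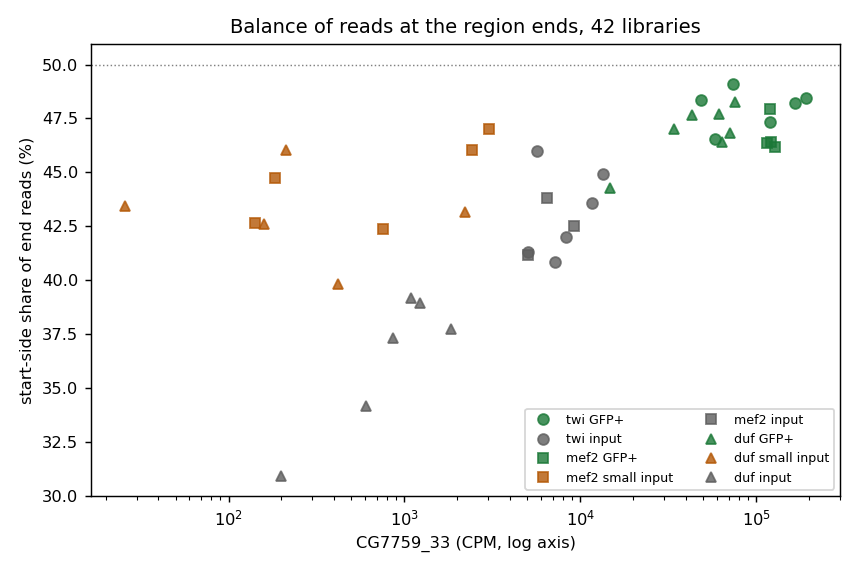
Reads at the start of CG7759_33 as a percentage of the reads at both ends, against its CPM (log axis), for each of 42 libraries with colours for GFP+, input and small input and shapes for the driver. The dotted line marks equal ends at 50%, the GFP+ libraries lie at 44.3% to 49.1%, and the duf inputs reach down to 30.9%.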

How the data were processed

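Each of 42 deposited tables lists candidate regions of 1 library in dm3 coordinates. The submitters' processing notes name CASAVA 1.8; the version of the mapper was not given in these sources. Per the file headers, start and end heights are read counts at the ends of a region and the weight is their sum, which held in 20655 of 20655 lines. The deposited total is an expected count, with fractional values for 2 to 87 regions per table. The GC content of a region was deposited as a fraction.

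The totals were rounded to whole numbers. In 11 tables, 3 regions were listed on 2 lines each, which were merged with the end reads counted once. CPM scales to the reads over all regions, and the floor of 3 reads corresponds to 0.0978 to 0.192 CPM. Tests used edgeR 4.0.16 (R 4.3.3) with TMM scaling, its filterByExpr filter and the quasi-likelihood F test, adjusted after Benjamini and Hochberg over all regions tested (threshold 0.05), with standard errors as the log2 difference over the square root of F. Total-read scaling moved the median region by -0.96 to 1.85 on the log2 scale against TMM. Alternatives were total-read scaling, median-ratio size factors, DESeq2 1.42.0, other filters, replicate and lane blocks, and leaving out each library.

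Named regions were those with the identifier prefix CG7759_, the 3 nearest on each side, the 5 most alike in log2(mean CPM + 1) among regions of mean CPM of at least 10, and any with a higher mean in a GFP+ group. The region, the lists and the tests were chosen with earlier results of these data known. All replicates differed by more than sampling noise. The labels give groups the same replicate numbers. Deviations of same-numbered libraries from group means correlated between GFP+ and input (0.17 to 0.33 for twi CD2+, 0.22 to 0.28 for twi CD2-, 0.21 to 0.39 for duf CD2-). Between both twi inputs the correlations were 0.47 to 0.68. Libraries of different numbers were not compared in this way, so whether the numbers pair the libraries was not tested. In the other pairs of groups not every correlation passed 0.1.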

Additional observations from a re-analysis of the deposited data

Results flagged for a closer look

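Among the 5 duf small inputs, replicate 1 stood apart in CG7759_33, at 2222.9 CPM against 25.7 to 417 CPM in the others, with a gap to the nearest of 0.822 of the whole range. Its rank of 151 also stood apart, with a gap of 0.716 of the range of ranks. Of 16 groups and measures examined 2 stood out in this way, and chance gives about 1 in 20. Both are values of the same library, so they are not 2 independent observations. The gaps were taken on CPM and on rank, not on a log scale. The gain of CG7759_33 over input differed between duf and twi CD2- cells by 3.53 on the log2 scale (edgeR adjusted p 0.0251), higher in duf, and the drivers cannot be told apart from their pools.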

How the results depend on the processing

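The direction or call of several tests depended on scaling and on single libraries, and some calls on the replicate block. With median-ratio size factors in edgeR and with DESeq2, the twi difference of enrichment became -0.056 and -0.067, the twi GFP+ difference 0.57 in both, the mef2 against twi GFP+ difference 1.18 in both, the duf minus twi difference 0.64 in both, the mef2 minus twi difference of CD2- cells 0.12 in both, and the duf minus mef2 difference -1.05 and -1.06. Those size factors rest on regions with reads in every library, 122 of 440 for duf minus twi. For twi GFP+ cells these were 135 of 172, and for mef2 against twi GFP+ cells 129 of 170. With total-read scaling the 3 calls were kept, at 1.41 for twi GFP+ cells, 1.02 for mef2 against twi GFP+ cells and 3.10 for duf minus twi. The twi inputs gave -0.00024 with total reads. The mef2 against twi inputs gave -0.31 with total reads, -0.0023 with median-ratio size factors and with DESeq2, -0.13 without a filter and -0.14 with a minimum mean count of 100. Without a filter the twi difference of enrichment passed at 2.03 (adjusted p 0.0415). With the replicate number as a block, the twi GFP+ difference of 1.94 had an adjusted p of 0.211 and the mef2 against twi GFP+ difference of 1.83 one of 0.0557, and the block changed no other call of the region. Neither pair of groups had every correlation of same-numbered libraries over 0.1, though each twi GFP+ group with its inputs, and both twi inputs, did. The exact permutation test of the mef2 inputs gave -3.30. On TMM-scaled CPM the log2 ratios of GFP+ over input were 5.86 for twi CD2+ cells and, among CD2- cells, 4.14 for twi, 5.72 for mef2 and 7.94 for duf. The cause of these moves was not tested.

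Leaving out 1 library at a time gave 1.57 to 2.32 for the twi difference of enrichment, 1.59 to 2.36 for twi GFP+ cells, -0.094 to 0.61 for twi inputs, 1.56 to 2.13 for mef2 against twi GFP+ cells, -0.30 to 0.51 for their inputs, 3.05 to 3.79 for duf minus twi, -2.10 to -0.06 for the duf small inputs, 6.23 to 7.10 for the mef2 CD2+ ratio and 4.29 to 6.17 for the duf CD2+ ratio.

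Counts of called regions also moved. DESeq2 called 12, 26 and 84 regions in the twi, mef2 and duf differences, 16 in twi GFP+ cells, 5 in twi inputs, 30 in mef2 against twi GFP+ cells, 39, 33 and 52 in the differences of mef2 minus twi, duf minus twi and duf minus mef2, and 44 and 8 in the small inputs. Median-ratio size factors in edgeR gave 0 calls in twi GFP+ cells and 2 each in duf minus twi and duf minus mef2. The replicate block gave 0 in twi GFP+ cells, 2 in mef2 against twi GFP+ cells, 41 in their inputs, 3 in duf minus twi, 7 in duf minus mef2 and 3 in the mef2 difference. The number of libraries per group limits the precision.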
